A study of Homo sapiens with 12 samples.

Results

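The replication-dependent histone genes are 69 of the 19974 protein-coding genes of chromosomes 1 to 22 and X in the RefSeq table. They were chosen by symbol alone, as the H1-1 to H1-6 genes and every gene named H2AC, H2BC, H3C or H4C with a number. They comprised 6 H1, 17 H2A, 18 H2B, 13 H3 and 15 H4 genes. The data were lists of peaks from chromatin immunoprecipitation and sequencing (ChIP-seq) in HEK293T, a human embryonic kidney line, described in the labels as wild type. Antibodies were against INTS13, INTS11, HDGF, ZEB1 and ZNF609, with 2 libraries and so 2 lists per protein. The cells had been fixed with 1% formaldehyde for 5 min, and reads were paired, of 150 bp. No treatment or synchronisation of the cell cycle is named in the labels, and the 2 input libraries were not used here. Peak lists give no expression, so the cell line could not be checked against its markers. The INTS13 lists were the longest, with 416964 and 341913 peaks, and those of ZNF609 the shortest, with 46187 and 26409. A list with more peaks reaches more genes, so the count over the whole family in each list stands beside the share of all protein-coding genes in that list. The stated aim of the series was to see if INTS13 and factors that interact with it share binding places.

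Replication-dependent histone genes supply the bulk of the histones that package newly made DNA, and their transcripts accumulate in S phase. Most are short, lack introns and lie in clusters, and the coactivator NPAT gathers with them in nuclear histone locus bodies. Their messenger RNAs end in a stem-loop bound by SLBP rather than a poly(A) tail, and this end is cut by a machinery that contains the U7 small nuclear ribonucleoprotein. Integrator is a separate complex that cleaves RNA polymerase II transcripts while they are being made. INTS11 is its endonuclease, and INTS13 is a subunit that has been linked to transcription factors. Of the others, ZEB1 is a repressor that binds E-boxes through zinc fingers, ZNF609 has a zinc finger too, and HDGF binds chromatin.

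With members closer than 200 kb joined into 1 cluster, 55 genes lay on chromosome 6, 13 on chromosome 1 and 1 on chromosome 12. On chromosome 6 there was a pair near 25.7 Mb, 32 genes from 26 Mb over 269 kb, 5 genes from 27.1 Mb over 15.2 kb and 16 genes from 27.8 Mb over 86.4 kb. On chromosome 1 there were 11 genes from 149.8 Mb over 105 kb, and the pair H2AC25 and H2BC26 near 228.5 Mb. H4C16 stood alone near 14.8 Mb on chromosome 12. Neighbours often share a peak, so the genes are not independent of each other.

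Promoters were available for 64 of the 69 genes, as the 250 bases before to 50 after the start in RefSeq GRCh38.p14. There was no entry for H4C1, H4C3, H2AC12, H3C11 or H3C12. The promoters of H2BC26, H2AC20, H1-4, H3C14 and H4C14 are shown 5′ to 3′ because the results turn on them. H2BC26 (chr1:228457853-228458152, plus strand) has the most lists with a peak, H2AC20 (chr1:149886668-149886967, plus strand) and H1-4 (chr6:26156079-26156378, plus strand) have INTS13 and INTS11 in both lists, and H3C14 (chr1:149841159-149841458, minus strand) and H4C14 (chr1:149832407-149832706, plus strand) have no peak in any list. Capitals mark, on either strand, the TATA box (TATAAA), the CCAAT box (CCAAT) and the octamer (ATTTGCAT).
H2BC26: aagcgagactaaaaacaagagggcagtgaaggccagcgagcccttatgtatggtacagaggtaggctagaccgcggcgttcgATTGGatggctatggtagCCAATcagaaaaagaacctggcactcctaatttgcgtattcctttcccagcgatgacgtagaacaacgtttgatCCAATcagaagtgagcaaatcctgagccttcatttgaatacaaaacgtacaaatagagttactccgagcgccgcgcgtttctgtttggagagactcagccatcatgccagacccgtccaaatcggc
H2AC20: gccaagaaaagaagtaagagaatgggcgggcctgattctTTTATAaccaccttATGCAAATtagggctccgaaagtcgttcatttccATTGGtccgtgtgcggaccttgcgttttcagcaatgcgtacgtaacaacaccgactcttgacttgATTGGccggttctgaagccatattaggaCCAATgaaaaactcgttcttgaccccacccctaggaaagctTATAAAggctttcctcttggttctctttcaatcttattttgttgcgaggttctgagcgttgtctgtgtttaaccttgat
H1-4: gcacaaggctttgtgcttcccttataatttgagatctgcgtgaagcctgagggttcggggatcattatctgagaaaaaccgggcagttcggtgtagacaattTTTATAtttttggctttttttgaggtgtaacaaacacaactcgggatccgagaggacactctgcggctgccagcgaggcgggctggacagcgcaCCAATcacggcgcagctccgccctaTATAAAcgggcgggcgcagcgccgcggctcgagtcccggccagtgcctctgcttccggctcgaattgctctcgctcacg
H3C14: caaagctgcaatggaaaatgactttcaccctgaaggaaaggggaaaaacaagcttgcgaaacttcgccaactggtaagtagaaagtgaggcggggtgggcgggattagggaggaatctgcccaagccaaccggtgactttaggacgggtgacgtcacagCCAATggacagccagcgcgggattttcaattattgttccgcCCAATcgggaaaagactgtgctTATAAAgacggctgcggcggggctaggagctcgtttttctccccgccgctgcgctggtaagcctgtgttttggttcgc
H4C14: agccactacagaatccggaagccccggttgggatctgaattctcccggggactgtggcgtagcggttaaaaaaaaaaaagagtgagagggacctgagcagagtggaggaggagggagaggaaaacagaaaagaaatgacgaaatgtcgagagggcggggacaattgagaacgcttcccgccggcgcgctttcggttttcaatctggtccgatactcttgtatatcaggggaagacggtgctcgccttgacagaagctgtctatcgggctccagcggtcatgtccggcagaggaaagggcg

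The printed H2BC26 window holds the CCAAT box on both strands, and most of it is also the promoter of H2AC25, which is read the other way: the 2 windows share an unbroken run of 271 bases. The H2AC20 window holds all 3 motifs, those of H1-4 and H3C14 a TATA box and a CCAAT box, and that of H4C14 none of them. H4C14 and H4C15 have the same 300 bases, and H3C14 and H3C15 share a run of 296 bases. At such copies the placing of a read is uncertain.

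These motifs were frequent in the family. A TATA box was present in 42 of 64 histone promoters (65.6%) and in 9.64% of 15813 protein-coding promoters. The CCAAT box was present in 54 (84.4%), against 36.3% of protein-coding promoters. Every H1, H2A, H2B and H3 promoter in the table held a CCAAT box, and 3 of 13 H4 promoters did. The octamer, which OCT1 (POU2F1) binds, was present in 26 (40.6%), against 1.70%. Its carriers were 11 of 16 H2A, 14 of 18 H2B and 1 of 11 H3 promoters, with no H1 or H4 promoter among them. The H3 carrier is H3C4, whose window is the same 300 bases as that of H2AC7. Divergent H2A and H2B genes share most of their windows, so 1 site can be counted at both genes for each motif. CAGGTG, an E-box that ZEB1 can bind, was present in 2 (3.12%), H2BC5 and H2BC10, against 19.9% of protein-coding promoters. No letter sequence of one motif contains another, and a match is not a measured site.

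INTS13 had a peak within 1 kb of nearly all histone genes. In its lists 65 and 58 of 69 genes had one, which is 94.2% and 84.1% of the family, against 86.1% and 80.9% of all protein-coding genes. The 2 lists shared 57 genes (82.6%), against 79.7% of protein-coding genes, a share near that background. The shared genes were 87.7% of the 65 and 98.3% of the 58. Histone genes are short, with a median annotated length of 494 bp, so long genes have more room for a peak. Of protein-coding genes of 5 kb or less, 61.3% had an INTS13 peak in both lists. Where the peak had to overlap the gene itself, INTS13 was at 60.9% of histone genes in both lists, against 78.1% of all protein-coding genes. In windows of 1 kb either side of the transcription start, which do not vary with gene length, 58 and 52 of 64 histone genes had an INTS13 peak (90.6% and 81.2%), against 78.1% and 62.7% of protein-coding genes. In these windows 50 histone genes (78.1%) had INTS13 in both lists, against 60.4% of all protein-coding genes and 57.1% of those of 5 kb or less.

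The other proteins were found at fewer histone genes. INTS11 had a peak at 32 and 13 of the 69 (46.4% and 18.8%), against 68.2% and 44.5% of protein-coding genes, and 8 genes (11.6%) were in both lists, against 42.8%. HDGF had a peak at 18 and 10 (26.1% and 14.5%), against 63.4% and 59.5%, and 7 genes (10.1%) were in both lists, against 55.4%. ZEB1 had a peak at 4 and 2 (5.80% and 2.90%), against 29.2% and 23.0%, and 2 (2.90%) were in both, against 16.2%. ZNF609 had a peak at 2 genes in its first list (2.90%), against 21.3%, and at 0 in its second, against 12.6%. None was in both ZNF609 lists, against 9.79% of protein-coding genes. The gaps were smaller beside short genes. Among genes of 5 kb or less, 21.3% had INTS11, 29.7% had HDGF, 5.31% had ZEB1 and 2.06% had ZNF609 in both lists. In start windows INTS11 had a peak at 27 and 10 of 64 histone genes (42.2% and 15.6%), against 45.2% and 17.6% of all protein-coding genes. HDGF was at 11 and 5 there (17.2% and 7.81%), against 26.7% and 24.7%. ZEB1 was at 4 and 2 (6.25% and 3.12%), against 10.3% and 6.43%, and ZNF609 at 2 and 0 (3.12% and 0%), against 4.64% and 1.94%. In both lists INTS11 was at 6 histone starts (9.38%), against 15.5% of all protein-coding starts and 15.3% of those of 5 kb or less. HDGF was at 3 (4.69%), against 15.6% and 15.4%, while ZEB1 was at 2 (3.12%), against 3.50% and 3.48%. ZNF609 was at 0, against 1.01% and 0.901%.

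**Figure D1:**
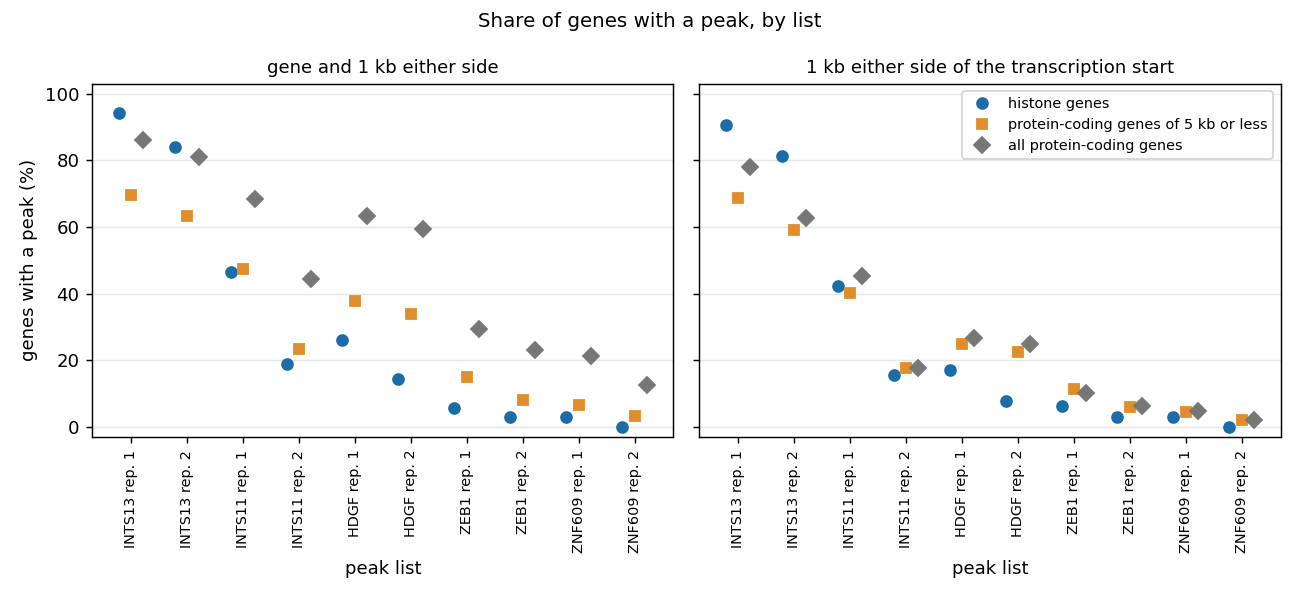
Percentage of genes with a peak in each of the 10 lists, for histone genes, all protein-coding genes and protein-coding genes of 5 kb or less, with windows of 1 kb around the gene and around the transcription start. Each point is 1 list. INTS13 points of the histone genes lie above both backgrounds, while those of HDGF lie below them.

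The histone share minus the share of all protein-coding genes was taken per list, which sets aside part of the difference in list length. INTS13 stood at 5.61 ± 3.50 percentage points and INTS11 at -23.7 ± 2.67 (SD, n = 2 lists each). HDGF stood at -41.2 ± 5.46, ZEB1 at -21.8 ± 2.38 and ZNF609 at -15.5 ± 4.09 (SD, n = 2 lists each). The INTS13 lists did not overlap those of any other protein in this measure. It cannot fall below 0 minus the protein-coding share of a list. ZNF609 replicate 2, with 0 histone genes, stood at that limit, -12.6. INTS13 exceeded INTS11 by 29.4 points, HDGF by 46.8, ZEB1 by 27.4 and ZNF609 by 21.1. Each difference had an exact two-sided permutation p of 0.33, also after adjustment over the 4 tests, which is the smallest that 2 lists against 2 allow. The labels do not say whether the replicates were separate cultures, so the spread may be technical. With genes of 5 kb or less as background the measure was 22.7 ± 2.90 points for INTS13, -2.73 ± 2.56 for INTS11 and -15.6 ± 5.42 for HDGF (SD, n = 2).

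INTS13 peaks at histone genes were numerous and mostly of low fold, as were the whole INTS13 lists. They were 73 and 58 distinct peaks in its 2 lists, with a median fold over background of 2.60 and 2.12, against 2.34 and 2.09 over the whole lists. Of these peaks 17 of 73 and 5 of 58 had a deposited -log10 q of 5 or more, and 15.1% and 12.1% of all peaks in the 2 lists did. The share at histone genes was thus above that of the list in replicate 1 and below it in replicate 2. The strongest INTS13 peak at a histone gene had a median percentile of 83.0 and 65.5 in its list, against 89.1 and 79.4 for other protein-coding genes of 5 kb or less with a peak. Genes of up to 5 kb can have wider windows than most histone genes, and so more peaks from which the strongest is taken. These medians are therefore not matched for gene length. When only peaks with a -log10 q of 5 or more were kept, 5 histone genes had INTS13 in both lists (7.25%), against 30.9% of protein-coding genes. With the 20000 strongest peaks of each list it was again 5 (7.25%), against 13.6%. Both backgrounds are over genes of all lengths, and long genes have more room for a peak. No share for genes of 5 kb or less is given here under these limits. In the histone share minus the protein-coding share, INTS13 was then below INTS11, ZEB1 and ZNF609 under either choice, and below HDGF with the -log10 q limit. Most INTS13 calls at histone genes thus came from peaks with a -log10 q under 5, and most peaks of the whole INTS13 lists were also under 5.

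**Figure D2:**
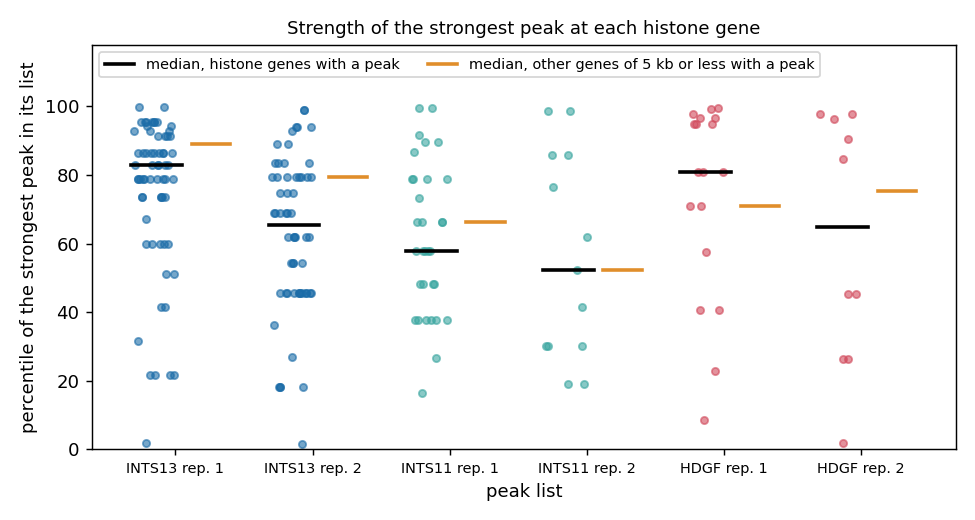
Percentile, by the deposited -log10 p, of the strongest peak at each histone gene within its own list, for INTS13, INTS11 and HDGF. Points are genes with a peak, black lines their medians and orange lines the medians of other protein-coding genes of 5 kb or less with a peak. The INTS13 medians of 83.0 and 65.5 lie below the orange lines at 89.1 and 79.4. Gene length is not matched between the groups.

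INTS13 summits at histone genes were most frequent in the first 500 bp after the transcription start, within the transcribed part of these short genes. Of the summits within 1 kb of a histone start, 29 of 58 (50%) and 26 of 51 (51.0%) lay there in the 2 lists. At other protein-coding genes of 5 kb or less the shares were 31.8% and 32.0%. Per 100 genes this came to 45.3 and 40.6 summits at histone genes, against 20.9 and 16.1 at the other short genes. The 250 bp just before the start held few summits at histone genes, 3.12 and 1.56 per 100 genes, against 13.1 and 4.8 at other short genes. For INTS11, 11 of 28 (39.3%) and 4 of 9 summits (44.4%) lay in the first 500 bp at histone genes, against 32.5% and 29.7% at other short genes. HDGF had 2 and 0 summits there at histone genes. A summit between a divergent pair is counted at each start, and these shares are a description without a test, since genes are not replicates.

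**Figure D3:**
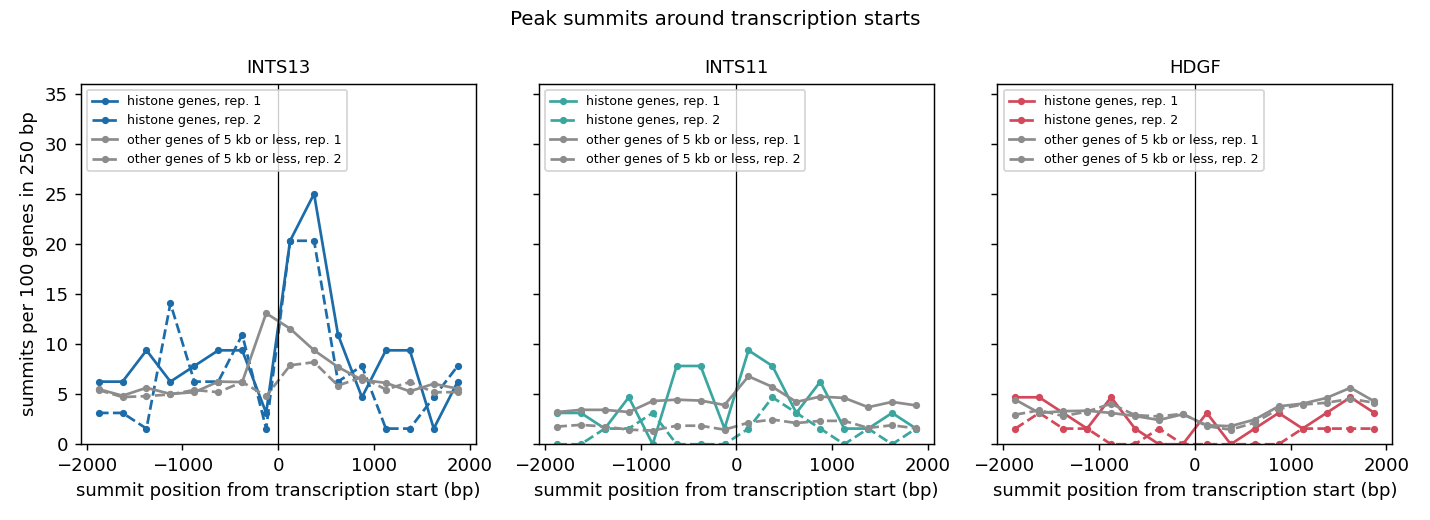
Peak summits per 100 genes in bins of 250 bp around the transcription start, for histone genes and other protein-coding genes of 5 kb or less, with 1 line per list. The 2 INTS13 lines of the histone genes peak after the start and dip in the bin just before it, at 3.12 and 1.56 per 100 genes.

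In the 3 larger chromosome 6 clusters, windows of 1 kb around the 53 histone genes took up 37.1% of the span. They held 57 of 96 INTS13 summits (59.4%) and 42 of 79 (53.2%) in the 2 lists. INTS13 summits were 2.48 and 1.93 times as dense inside the windows as in the rest of the span. INTS11 summits were 3.73 and 2.83 times as dense inside, from 22 of 32 and 5 of 8 summits. HDGF summits were about as dense inside as outside, with a ratio of 0.969 in each list, from 12 of 33 and 8 of 22. In the chromosome 1 cluster of 11 genes the windows took up 59.2% of the span and the ratios differed. They were 1.15 and 1.38 for INTS13, 3.45 and 1.38 for INTS11, and 0.690 and 2.76 for HDGF, from at most 16 summits in a list. The clusters of 5 or more histone genes on chromosomes 6 and 1 held 3 other protein-coding genes, and INTS13 was in both lists at 1 of them, HFE.

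**Figure D4:**
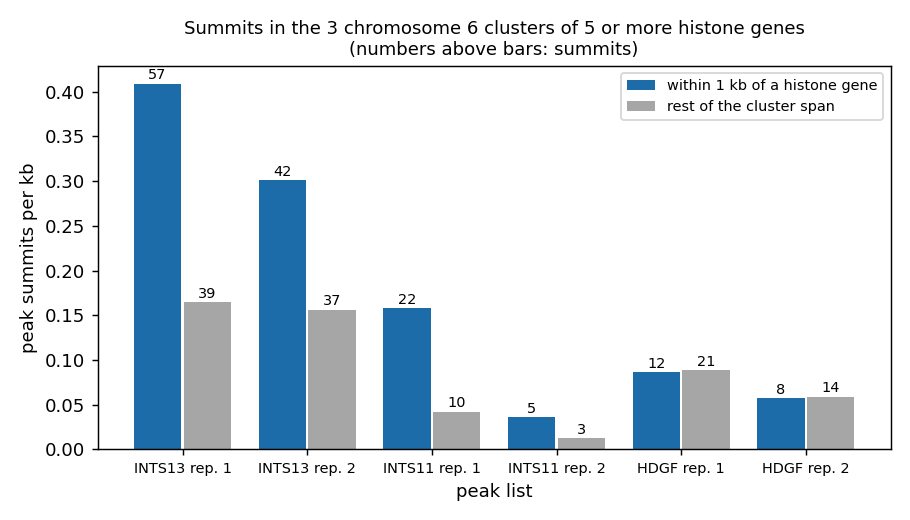
Summits per kb within 1 kb of a histone gene and in the rest of the span of the 3 larger chromosome 6 clusters, for the INTS13, INTS11 and HDGF lists, with the number of summits above each bar. The INTS13 and INTS11 bars are higher inside the windows, while the HDGF bars are level.

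By histone type, INTS13 was in both lists at 6 of 6 H1, 15 of 17 H2A, 15 of 18 H2B, 10 of 13 H3 and 11 of 15 H4 genes. The share was 79.7% over all protein-coding genes and 61.3% over those of 5 kb or less. Differences between types or places were not tested. By place, it was at 2 of 2 genes near 25.7 Mb on chromosome 6, 28 of 32 from 26 Mb, 2 of 5 from 27.1 Mb and 15 of 16 from 27.8 Mb. On chromosome 1 it was at 7 of 11 genes from 149.8 Mb and at both near 228.5 Mb, and it was at H4C16 on chromosome 12. No peak in any list lay at H3C14, H3C15 or H4C14. A single list had one at H3C13, H4C2, H2BC3, H2BC9 and H2BC11.

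**Figure D5:**
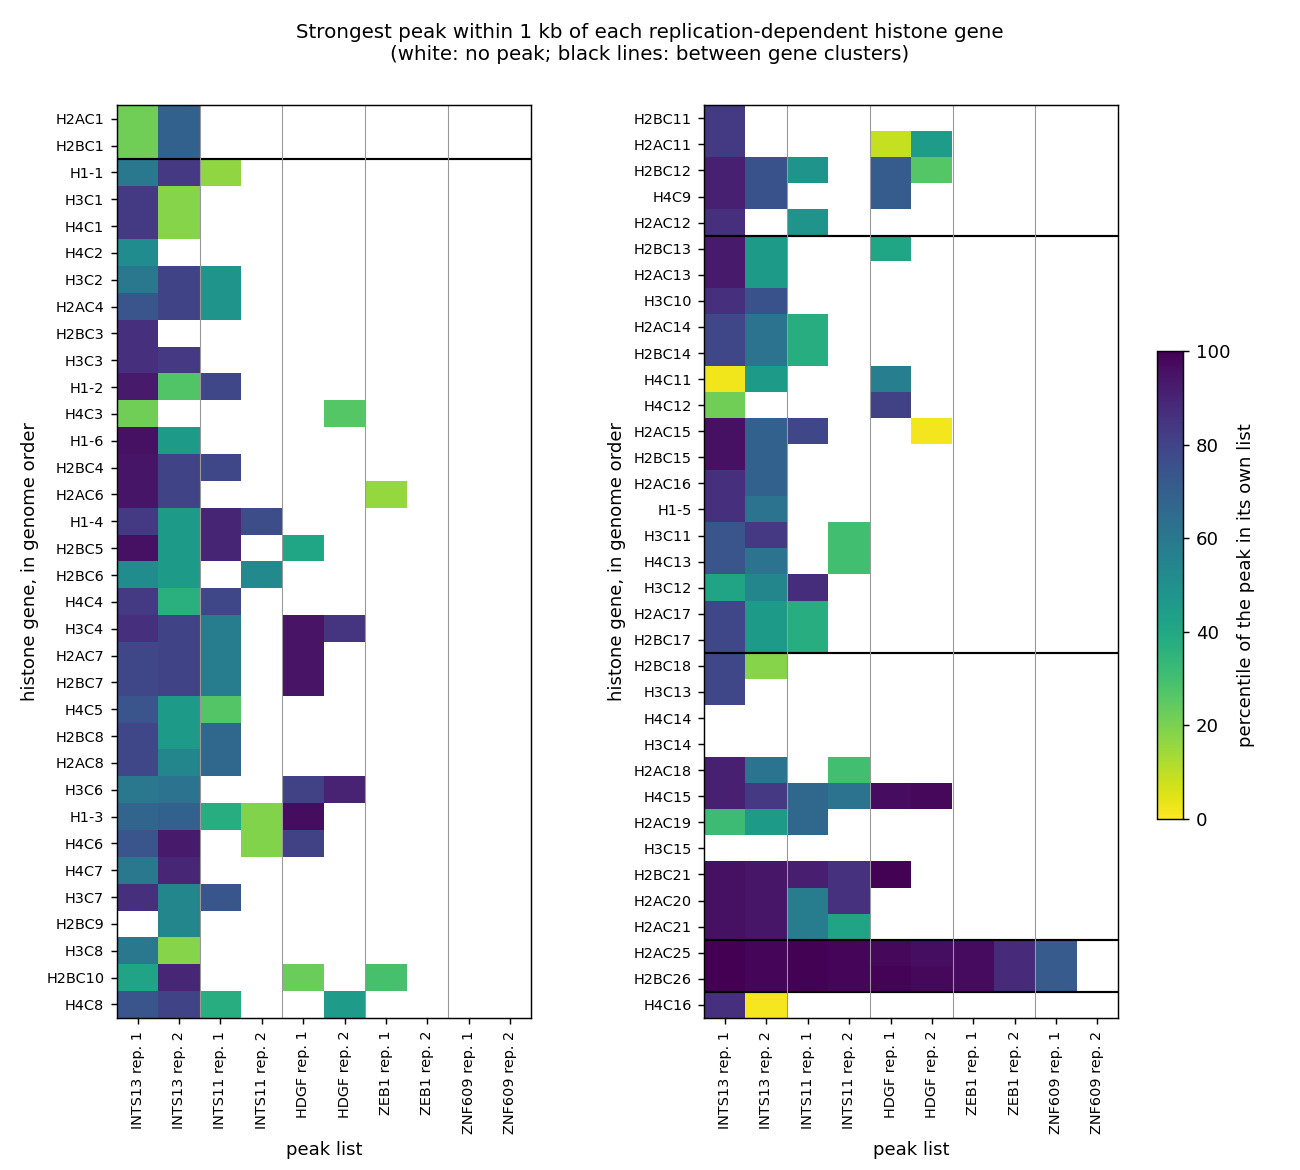
Percentile of the strongest peak within 1 kb of each of the 69 histone genes in each list, with genes in genome order down the page and lists across. White marks no peak and black lines separate clusters. INTS13 fills most rows, while H2AC25 and H2BC26 have a peak in 9 of the 10 lists.

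The H1 genes encode the linker histones, which bind the DNA between nucleosomes. Their strongest INTS13 peaks had folds of 2.42 and 2.48 at H1-1, 3.12 and 1.96 at H1-2, and 2.51 and 2.29 at H1-3 in replicates 1 and 2. At H1-4, H1-5 and H1-6 the folds were 2.77 and 2.09, 2.86 and 2.22, and 3.29 and 2.09. H1-6 is known as the testis H1. INTS11 was in both lists at H1-4, with folds of 2.62 and 2.45 and summits 147 and 334 bp after the start. It was also in both at H1-3, with folds of 2.07 and 2.02, but with summits 1826 and 1451 bp after the start. H1-2 and H1-1 had INTS11 in replicate 1 only, with folds of 2.41 and 1.93. HDGF was at no H1 gene in both lists.

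Of H2A and H2B genes, which encode the histones that pair into dimers, 22 form 11 divergent pairs with starts 194 to 248 bp apart. INTS13 was in both lists at both genes in 10 of the 11 pairs, the exception being H2BC11 and H2AC11. It was in both lists at 57 of all 69 histone genes, and the 1 kb windows of a pair overlap, so 1 peak can call both genes. INTS11 was in both lists at both genes of 2 pairs, HDGF and ZEB1 of 1 each and ZNF609 of none. The testis pair H2AC1 and H2BC1 shared 1 INTS13 peak per list, with folds of 2.08 and 2.29, and had no peak of another protein. H2BC21 and H2AC20, with the neighbour H2AC21, lay under 1 INTS13 peak per list, of 3441 and 4791 bp with folds of 3.29 and 2.81. INTS11 at H2BC21 had folds of 2.69 and 2.60, and at H2AC21 of 2.20 and 2.16. H2BC4 and H2AC6 also shared 1 INTS13 peak per list, with folds of 3.20 and 2.42. The copies H2AC18 and H2AC19 had INTS13 in both lists, with summits 770 to 861 bp before the start.

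H3 and H4 genes encode the histones at the core of the nucleosome. At H3C3, among the 10 strongest for INTS13, the folds were 2.86 and 2.48, with percentiles of 86.4 and 83.4. At H3C4, whose start in the table is that of H2AC7, they were 2.86 and 2.42. INTS11 was at no H3 gene in both lists. H4C15 was in both lists of INTS13, INTS11 and HDGF, but its annotated transcript spans 16753 bp, and the strongest peaks lay 11918 to 17637 bp after the start. None of the lists had a peak within 1 kb of that start, whose promoter is a copy of that of H4C14. H4C16 had INTS13 folds of 2.86 and 1.70.

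The INTS11 genes in both lists were H2BC21, H2AC20, H2AC21, H4C15, H2AC25 and H2BC26 on chromosome 1 and H1-4 and H1-3 on chromosome 6. They were 25% of the 32 in replicate 1 and 61.5% of the 13 in replicate 2. On chromosome 1 INTS11 was at 7 of 13 genes in replicate 1 and at 7 in replicate 2, and on chromosome 6 at 25 and 6 of 55. All 8 also had INTS13 in both lists, as did 57 of all 69 histone genes (82.6%), and were 14% of the 57. Of the 7 genes with HDGF in both lists 6 (85.7%) had INTS13 in both, a share near that of the whole family. They were 10.5% of the 57. The 7 HDGF genes were H4C15, H2AC25, H2BC26, H3C4, H3C6, H2AC11 and H2BC12, of which H2AC11 had INTS13 in 1 list. HDGF folds were 4.34 and 4.88 at H4C15, 4.14 and 3.95 at H3C4, and 3.55 and 4.18 at H3C6. They were 2.56 and 3.25 at H2AC11 and 3.35 and 3.02 at H2BC12. Most of these peaks were away from the starts of the genes. The strongest HDGF peaks lay 1042 to 14025 bp after the start, except that at H3C4 in replicate 1, 866 bp before it, and at H3C6 in replicate 2, 1017 bp before it.

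H2AC25 and H2BC26, which lie apart from the other genes, had peaks of the most proteins. H2AC25 (chr1:228457364-228457873, minus strand) and H2BC26 (chr1:228458103-228458558, plus strand) had a peak in 9 lists, all but ZNF609 replicate 2. At H2AC25 the INTS13 folds were 5.71 and 3.40, the INTS11 folds 3.72 and 3.25, the HDGF folds 4.54 and 4.65, the ZEB1 folds 3.51 and 3.18, and the ZNF609 fold 2.81. The INTS13 peak was at percentile 99.9 and 98.8 of its lists, and the INTS11 peak at 99.5 and 98.6. These INTS11 peaks were 8637 and 6348 bp wide, with summits 463 and 3931 bp after the H2AC25 start. In replicate 2, the INTS13, INTS11 and HDGF lists had 0 summits within 1 kb of the pair. INTS13 summits lay 1227 and 1515 bp after the H2BC26 start, while those of the strongest HDGF peaks at H2AC25 lay 1619 and 1596 bp after its own start. These 2 genes were the ZEB1 genes in both lists, and ZEB1 replicate 1 also had H2AC6 and H2BC10. The promoter windows of H2AC25 and H2BC26 hold no CAGGTG, and of the other ZEB1 genes that of H2BC10 does. Peaks of several proteins were crowded there: the 1-Mb bin around them held 1.27 and 1.02 times the mean number of summits per bin for INTS13, and 2.51 and 7.23 for INTS11. The HDGF lists had 7.21 and 8.07 times their mean there, the ZEB1 lists 19.8 and 23.0 times, and the ZNF609 lists 21.8 and 29.0 times. The part of this crowding in the calls at the pair was not tested.

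Over the 69 genes, lists of the same protein were on average more alike than lists of different proteins, but not for every protein. The mean Jaccard index, the shared genes over all genes with a peak in either list, was 0.383 ± 0.325 within proteins (SD, n = 5 pairs) and 0.161 ± 0.192 between them (SD, n = 40 pairs). The difference of 0.222 had an exact one-sided permutation p of 0.0296 over 945 pairings of the libraries. The index also depends on how many genes each list reaches, which differs by protein. The test does not separate that from which genes are reached. Between the lists of INTS13 the index was 0.864. INTS11 lists gave 0.216, HDGF lists 0.33, ZEB1 lists 0.5 and ZNF609 lists 0. INTS11 replicate 1 had a higher index with the INTS13 lists, at 0.492 and 0.525, than with INTS11 replicate 2. Set sizes limit these values: INTS11 replicates 1 and 2 reached 32 and 13 genes, and the INTS13 lists 65 and 58. The order is therefore not a measure of likeness between the proteins. The 2 genes of ZNF609 replicate 1 were those of ZEB1 replicate 2, an index of 1. At -log10 q of 5 or more the difference was 0.0857, with an exact permutation p of 0.156.

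Of 21 genes for histone transcription and 3′ end processing, 19 (90.5%) had INTS13 in both lists, against 79.7% of all protein-coding genes. INTS11 was at 13 (61.9%), against 42.8%, and HDGF at 19 (90.5%), against 55.4%. ZEB1 was at 6 (28.6%), against 16.2%, and ZNF609 at 4 (19%), against 9.79%. Those with INTS13 and INTS11 included NPAT and its partner CASP8AP2, the U7 subunit LSM10, the endonuclease CPSF3, ZNF473, POU2F1, GON4L, UPF1, CCNE1 and SYMPK. In start windows 18 of these genes could be placed, and INTS13 was at 16 of them in both lists (88.9%), against 60.4% of all protein-coding genes. INTS11 was at 4 (22.2%), against 15.5%, and HDGF at 4 (22.2%), against 15.6%, both near those shares. ZEB1 and ZNF609 were each in both lists at 0 of the 18, against 3.50% and 1.01%.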

How the data were processed

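ChIP-seq peak lists of 5 proteins in HEK293T cells, 2 per protein, were used as deposited, with groups and replicate numbers from the sample titles. Per the submitters' processing notes, the authors used FastQC, Trimmomatic, Bowtie, Picard and MACS2. Versions, the control and thresholds of the peak caller, and the treatment of reads that map to several places were not given in the sources read here, nor was the build. GRCh38 was inferred from alternate contig names in the lists. Peaks had been called by the authors per library, not on pooled replicates. The deposited score, the fold (a linear ratio over background), and the p-value and q-value on a -log10 scale are the authors' values for each peak, used to describe, rank and filter peaks within a list. Read depth is unknown, so no counting interval is given.

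The lists held 26409 to 416964 peaks on chromosomes 1 to 22 and X. A gene was called where a peak overlapped it or its flanks of 1 kb by 1 bp or more, with RefSeq gene coordinates. Transcription starts came from the RefSeq promoter table (GRCh38.p14). A percentile is a peak's rank in its list by deposited -log10 p. Motifs were searched on both strands. The overlap counts and permutation tests were tested on simulated data. Exact permutation tests over libraries were run in Python 3.11.15 with NumPy 2.4.6 and pandas 2.3.3. Named were all genes in both lists of a protein up to 10, otherwise the 10 with the highest lower percentile, those in most and fewest lists, the H1 genes and those outside the chromosome 6 clusters, and pathway genes with INTS13 and INTS11, up to 10 per list. Other features singled out were chosen after their values were seen. The genes, lists and tests were chosen with earlier results of these data known. Alternatives were other windows, stricter or equal peak sets, summits in place of peaks, each list alone and a pairing by replicate number. The start windows, merged loci and 2 sets without certain genes were chosen after seeing the data. A further list of related genes is not reported here.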

Additional observations from a re-analysis of the deposited data

Results flagged for a closer look

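INTS13 differed from each other protein in the histone share minus the share of all protein-coding genes, with every list of INTS13 above 0 and every list of the others below it. The differences were 29.4 points from INTS11, 46.8 from HDGF, 27.4 from ZEB1 and 21.1 from ZNF609. The exact two-sided permutation p was 0.33 for each, the smallest possible with 2 lists against 2, so these tests could not pass a threshold. All 4 turned negative with peaks of high significance, and those for INTS11, ZEB1 and ZNF609 also with lists of equal length, as given in the next paragraphs.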

How the results depend on the processing

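Under the alternatives, these counts of genes in both lists moved by over 1.5 times. Shares of all protein-coding genes under the same setting are given beside them. With -log10 q of 5 or more they were 5 for INTS13 (7.25%, against 30.9%) and 2 for INTS11 (2.90%, against 5.29%). For HDGF they were 3 (4.35%, against 6.61%) and for ZEB1 0 (against 0.871%). With the 20000 strongest peaks per list they were 5 for INTS13 (7.25%, against 13.6%), 3 for INTS11 (4.35%, against 8.37%) and 3 for HDGF (4.35%, against 17.8%). With summits inside the window they were 5 for INTS11, 4 for HDGF and 1 for ZEB1. A 500 bp window left 1 for ZEB1 (1.45%, against 15.8%). The gene itself left 2 for HDGF (2.90%, against 53.1%) and 1 for ZEB1 (1.45%, against 15.3%). Start windows left 3 of 64 for HDGF (4.69%, against 15.6%). Merging genes whose windows touch gave 34 of 39 loci for INTS13, 5 for INTS11 and 1 for ZEB1. The unit there was the locus, so these counts do not compare directly with 57, 8 and 2 of 69 genes. Without H2AC25 and H2BC26, ZEB1 had 0. Over all single lists, whether or not they moved that far, a list in place of both gave 58 to 65 for INTS13, 13 to 32 for INTS11, 10 to 18 for HDGF, 2 to 4 for ZEB1 and 0 to 2 for ZNF609.

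INTS13 was below the other proteins at -log10 q of 5 or more, by -12.6 points from INTS11, -14.9 from HDGF, -18.5 from ZEB1 and -18.0 from ZNF609. The measure cannot fall below 0 minus the protein-coding share of a list. At that -log10 q limit 30.9% of protein-coding genes had INTS13 in both lists, 5.29% INTS11, 6.61% HDGF, 0.871% ZEB1 and 0.501% ZNF609. Proteins with a low share thus had little room below 0. With 20000 peaks per list the differences were -7.35 from INTS11, -6.35 from ZEB1 and -7.33 from ZNF609, while HDGF gave 1.74. The cause was not tested. Leaving out each list gave 26.9 to 31.8 points from INTS11, 42.9 to 50.6 from HDGF, 24.9 to 29.9 from ZEB1 and 18.2 to 24.0 from ZNF609. The similarity within proteins fell to 0.0857 at -log10 q of 5 or more (exact permutation p = 0.156). Over its other alternatives p lay between 0.00317 and 0.0497.

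In the windows of 500 bp, with the gene itself, and with summits inside, INTS13 was at 71.0%, 60.9% and 71.0% of histone genes in both lists, against 79.1%, 78.1% and 78.4% of protein-coding genes, so its standing above that background depends on the window. Differences between replicates in gene calls correlated by -0.0506 to 0.0194 across protein pairs, so they gave no sign of pairing by replicate number. These values cannot show whether libraries of the same number shared a culture, which the labels do not state. With a replicate block the differences stayed at 29.4, 46.8, 27.4 and 21.1 points, each with an exact sign-flip permutation p of 0.5, the smallest possible.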
